A study of Homo sapiens with 4 samples.

Results

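The immediate early transcripts described here come from 10 genes, JUN, JUNB, JUND, FOS, ATF3, EGR1, MYC, IER2, IER5 and ZFP36, chosen by gene symbol. No cut on a measured value was used, but earlier results of these data were known when the genes were chosen. They are 10 of the 51740 genes in the deposited table. All 10 are protein-coding, and all 10 were among the 23333 genes that received an adjusted p-value, of which 15336 are protein-coding. Immediate early genes are switched on within minutes of a growth signal or stress without new protein synthesis, mostly by transcription factors already present in the cell, such as SRF with its ternary complex partners and CREB or ATF proteins. Their mRNAs are often short-lived, and AU-rich elements in the 3′ UTR are known sites for proteins that shorten the poly(A) tail and start decay. The question asked of them here was whether their normalized counts were higher in the cytoplasmic or in the nuclear fraction.

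The libraries were made from HEK293T, a line grown from human embryonic kidney and expressing large T antigen of SV40, with the genotype wildtype in the labels. All cells were crosslinked with formaldehyde, and no other treatment or time course is given, so the values are steady-state levels of growing cells and not a response to a stimulus. The groups were the nuclear fraction and the cytoplasmic fraction, with 2 libraries of each from independent biological replicates, made from an equal mass of total RNA after removal of ribosomal RNA. Because each library started from the same mass of RNA, a fold change does not compare amounts per cell. Less RNA per cell cannot be told apart from a smaller share. The fold change compares normalized counts, defined below. The change in a gene's share of all normalized counts is 0.66 lower on the log2 scale.

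The labels of the fractions were checked first. The nuclear lncRNAs MALAT1 and NEAT1 were lower in the cytoplasmic fraction, with log2 fold changes of -3.47 and -3.09. All 8 HEK293T marker genes looked up had a mean normalized count over 50, and of 6 markers of other cells only COL1A1 did, at 213. Normalized counts summed to 18136040 in each nuclear library on average and to 28705052 in each cytoplasmic library. A normalized count is a read count divided by the library's size factor, and the 4 size factors were 1.341 and 1.189 for the nuclear and 0.8529 and 0.7546 for the cytoplasmic libraries. Scaling both fractions to the same total would lower every log2 fold change given here by 0.66.

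Counts of single libraries were recovered from the digits of the deposited means for 9 of the 10 genes, all but MYC. The libraries are called a and b within a fraction, a being the one with the larger size factor, since the table does not tell which of them is replicate 1.

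AU-rich elements are shown first because they are the sequence feature for which many immediate early mRNAs are known. The windows of 30 bases below are from the 3′ UTR of the canonical GENCODE 44 transcript on hg38, read 5′ to 3′ along the RNA with DNA letters, and capitals mark the pentamer ATTTA. For each gene the window with the most copies of the nonamer TTATTTATT, and then of the pentamer, is shown. FOS is at chr14:75282060-75282089 on the plus strand, IER5 at chr1:181092447-181092476 on the plus strand, ZFP36 at chr19:39409185-39409214 on the plus strand, JUN at chr1:58781331-58781360 on the minus strand, and JUND at chr19:18279993-18280022 on the minus strand.
FOS: tgtttttaATTTATTTAttaagatggattc
IER5: cttcctttATTTATTTATTTATTTAattat
ZFP36: ggccctttATTTAtgacgactttATTTAtt
JUN: gaaaggatATTTAagaaaatacaataaact
JUND: tctgccctATTTAtgtttctactcgggaac

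The pentamer was present in the 3′ UTR of 9 of the 10 genes, and IER2 had 0. It is a common word, found on the sense strand in 71.5% of the 15266 tested protein-coding genes with a 3′ UTR. The nonamer, which contains the pentamer and is held by 9.27% of those genes, was in the 3′ UTR of 3 members. IER5 had 3 overlapping copies in its window, together with 10 pentamers over a 3′ UTR of 3014 bases. FOS and ZFP36 had 1 nonamer and 5 pentamers each. Of these 3 genes IER5 was called cytoplasmic, while FOS and ZFP36 had too few reads to place them. Over all tested protein-coding genes with a 3′ UTR, the 1415 with a nonamer had a median log2 fold change of -0.28, with 27.9% called cytoplasmic and 38.8% nuclear, beside 0.15, 36.4% and 27.3% for those without. The genes with and without a nonamer were not matched for gene span or 3′ UTR length, and the part of either was not tested.

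Of the 10 immediate early transcripts, 7 were called cytoplasmic and 0 nuclear at a DESeq2 adjusted p of at most 0.01 in the authors' deposited table. The background was high, since 25.9% of all tested genes were called cytoplasmic and 26.5% nuclear, and among protein-coding genes 35.6% were called cytoplasmic and 28.4% nuclear. The called genes were JUN, JUNB, JUND, ATF3, MYC, IER2 and IER5, with log2 fold changes between 1.33 and 2.86. FOS, EGR1 and ZFP36 were not called, with log2 fold changes between -0.51 and 0.26. Called and uncalled genes were also separated by level, with mean normalized counts of 182 to 15776 for the called genes and 8.68 to 13.8 for the uncalled. The median log2 fold change over the 10 genes was 2.15, beside 0.11 over tested protein-coding genes and -0.12 over all tested genes.

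**Figure D1:**
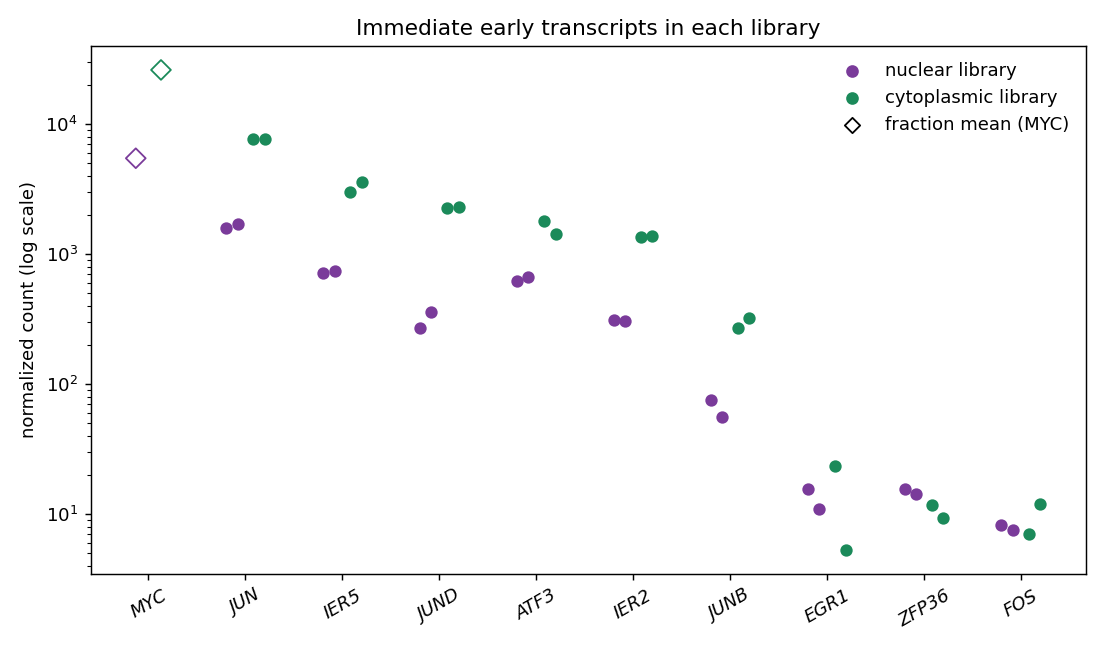
Normalized counts of each immediate early gene on a log axis, with 1 filled point per library (2 nuclear, 2 cytoplasmic) and open diamonds for the fraction means of MYC, whose single libraries were not recovered. The cytoplasmic points of JUN, IER5, JUND, ATF3, IER2 and JUNB stand clear above the nuclear ones, while EGR1, ZFP36 and FOS lie between 5.30 and 23.5 in every library.

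The Jun proteins are the basic leucine zipper subunits that pair with Fos or ATF proteins to form the AP-1 transcription factor. JUN (ENSG00000177606, chr1:58776845-58784048, minus strand) is the founding member of the family. Its normalized counts were 1595 and 1714 in the nuclear libraries and 7613 and 7644 in the cytoplasmic libraries, from raw counts of 2139, 2038, 6493 and 5768. Both cytoplasmic libraries lay far above both nuclear ones, and the 2 cytoplasmic values were almost equal. The log2 fold change was 2.21 ± 0.11 (SE, n = 2 per fraction), or 4.61-fold, with a DESeq2 adjusted p of 9.37e-91.

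JUND (ENSG00000130522, chr19:18279694-18281622, minus strand) encodes a Jun protein that is present in resting cells and is often described as less inducible than its relatives. Normalized counts were 270.7 and 356.5 in the nuclear libraries and 2242 and 2289 in the cytoplasmic libraries. The lowest cytoplasmic value was 6.29 times the highest nuclear value, the widest gap of the 9 genes with single-library values. Its log2 fold change of 2.86 ± 0.15 (SE, n = 2 per fraction), or 7.24-fold, was higher than that of 96.5% of tested protein-coding genes, with a DESeq2 adjusted p of 1.04e-77.

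JUNB (ENSG00000171223, chr19:12791486-12793315, plus strand) encodes a Jun protein that is often a weaker activator than JUN. It was the least abundant of the called genes, with normalized counts of 75.3 and 55.5 in the nuclear and 272 and 324.7 in the cytoplasmic libraries. The fractions did not overlap, although the nuclear libraries differed by 1.36-fold. The log2 fold change was 2.18 ± 0.27 (SE, n = 2 per fraction), with a DESeq2 adjusted p of 1.95e-15. In GENCODE 44 all 1830 bases of JUNB lie within HOOK2 on the opposite strand, and stretches shared by several genes were removed by the authors before counting, so how much of JUNB was counted is not known.

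ATF3 (ENSG00000162772, chr1:212565334-212620777, plus strand) encodes a stress-induced ATF family protein that pairs with Jun proteins and can repress transcription. Its normalized counts were 617.5 and 667.7 in the nuclear libraries and 1795 and 1438 in the cytoplasmic libraries. The fractions did not overlap, but the gap was the narrowest of the called genes with single-library values, the lowest cytoplasmic value being 2.15 times the highest nuclear one. The log2 fold change was 1.33 ± 0.15 (SE, n = 2 per fraction), or 2.52-fold, with a DESeq2 adjusted p of 2.81e-18. ATF3 was the only called gene that was no longer called when the test asked for a log2 fold change beyond 1.

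FOS (ENSG00000170345, chr14:75278826-75282230, plus strand) encodes the classical inducible partner of JUN. It was detected at 11 and 9 reads in the nuclear and 6 and 9 reads in the cytoplasmic libraries, or normalized counts of 8.20, 7.57, 7.04 and 11.9. The fractions overlapped. Its log2 fold change of 0.26 had a 95% interval from -1.74 to 2.26, which holds both no difference and the value of JUN, and the DESeq2 adjusted p was 0.846. With 35 reads over all 4 libraries, FOS could not be told apart from a gene with no difference or from one with that of JUN.

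EGR1 (ENSG00000120738, chr5:138465479-138469303, plus strand) encodes a zinc finger factor that is a standard readout of ERK signalling. Its raw counts were 21 and 13 in the nuclear and 20 and 4 in the cytoplasmic libraries, or normalized counts of 15.7, 10.9, 23.5 and 5.30. The cytoplasmic libraries differed by 4.42-fold and enclosed both nuclear values. Its log2 fold change was 0.12 with a 95% interval from -1.62 to 1.86 and a DESeq2 adjusted p of 0.918, and it was -1.33 without cytoplasmic library a and 0.82 without cytoplasmic library b.

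MYC (ENSG00000136997, on chromosome 8) encodes a basic helix-loop-helix factor of growth and metabolism whose short-lived mRNA is an early target of mitogens. It was the most abundant of the 10 genes, with a mean normalized count higher than that of 99.5% of tested protein-coding genes. The mean was 5457 for nuclear and 26100 for cytoplasmic libraries, which is 0.0301% and 0.0909% of the normalized total of each. The log2 fold change was 2.26 ± 0.12 (SE, n = 2 per fraction), or 4.78-fold, with a DESeq2 adjusted p of 2.65e-74. With equal normalized totals, which compares these shares, it was 1.60. More than 1 set of whole counts met the deposited values, so no single-library value is given for MYC. In GENCODE 44 the lncRNA CASC11 covers 47.3% of its span on the opposite strand.

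IER2 and IER5 belong to a small family of immediate early response proteins with a shared N-terminal region. IER2 (ENSG00000160888, chr19:13150411-13154911, plus strand) had normalized counts of 311.7 and 306.9 in the nuclear and 1352 and 1376 in the cytoplasmic libraries. Both pairs of replicates lay within 1.02-fold of each other, and the fractions did not overlap. The difference on the log2 scale was 2.14 ± 0.15 (SE, n = 2 per fraction), with a DESeq2 adjusted p of 4.9e-48.

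IER5 (ENSG00000162783, chr1:181088700-181092900, plus strand) encodes a protein linked to the heat shock response. Its normalized counts were 715.2 and 738.3 in the nuclear and 2976 and 3563 in the cytoplasmic libraries, without overlap. Its log2 fold change was 2.17 ± 0.13 (SE, n = 2 per fraction), with a DESeq2 adjusted p of 2.74e-59.

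ZFP36 (ENSG00000128016, chr19:39406847-39409412, plus strand) encodes tristetraprolin, which binds AU-rich elements, including one in its own mRNA, and recruits the deadenylation machinery. It was detected at 21 and 17 reads in the nuclear and 10 and 7 reads in the cytoplasmic libraries, or normalized counts of 15.7, 14.3, 11.7 and 9.28. The nuclear values were both above the cytoplasmic values, the only solved gene with that order. The difference was not called, with a log2 fold change of -0.51, a 95% interval from -2.18 to 1.16 and a DESeq2 adjusted p of 0.629. On reads alone, 2 libraries against 2 cannot give an exact two-sided permutation p below 0.333.

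**Figure D2:**
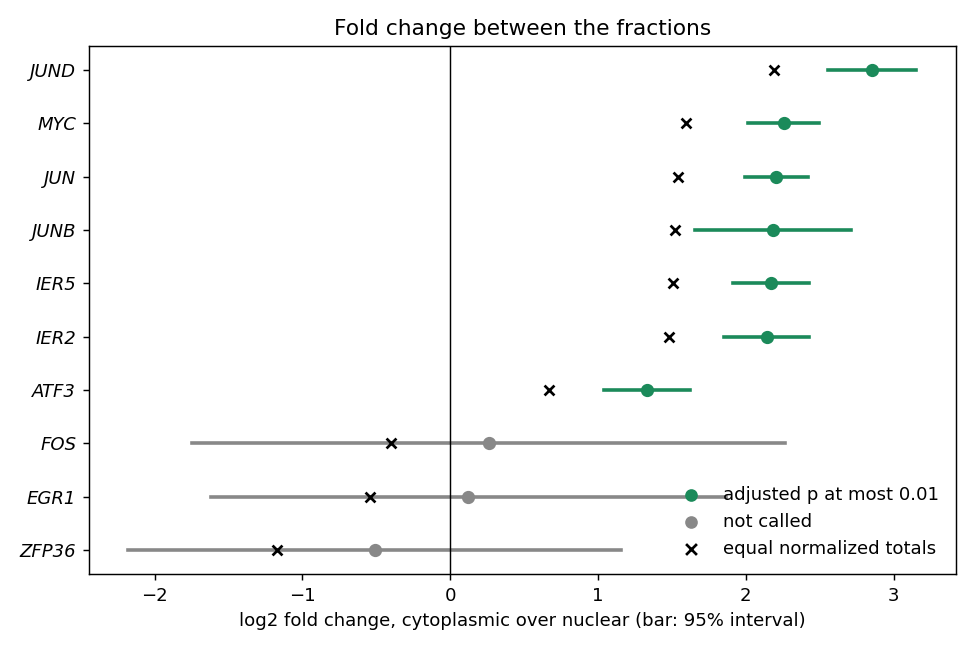
Log2 fold change of each immediate early gene, cytoplasmic over nuclear, with bars for the 95% interval from the deposited standard error and crosses for the value after scaling both fractions to equal normalized totals. The intervals of the 7 called genes lie above 0 and those of FOS, EGR1 and ZFP36 span 0, while the crosses of FOS and EGR1 fall at -0.40 and -0.54.

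The low level of the 3 uncalled genes limited what could be seen. Their standard errors on the log2 scale were 0.85 to 1.02, against 0.11 to 0.27 for the called genes. Over the 3753 tested genes with a mean normalized count of 5 to 20 the median standard error was 1.08, a 95% half-width of 2.12, and 14.9% were called in either direction. Some of their paralogs were as scarce, named here after their values were seen. FOSB had 9, 7, 1 and 7 reads in nuclear a, nuclear b, cytoplasmic a and cytoplasmic b, EGR2 had 3, 6, 6 and 5, and EGR3 had 3, 4, 5 and 4, and none of them was called. Other paralogs were not scarce. FOSL2, a relative of FOS, had a mean normalized count of 382 and was called cytoplasmic, at 1.24. The ZFP36 paralogs ZFP36L2 and ZFP36L1 were also above a mean of 50, and both were called cytoplasmic. ZFP36L2 had a log2 fold change of 1.56 ± 0.18 and ZFP36L1 of 0.74 ± 0.25 (SE, n = 2 per fraction), with DESeq2 adjusted p of 1.86e-17 and 0.00706. Scaling to equal normalized totals would lower both fold changes by 0.66, which is most of the value of ZFP36L1.

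Levels can be compared between genes only per length, so normalized counts were divided by the length of the canonical transcript in kilobases. Reads in introns were counted too, which makes these levels approximate. In the cytoplasmic fraction MYC stood first at a mean of 7013 normalized counts per kilobase, followed by JUN at 2342 and JUND at 1175. ATF3 at 833, IER5 at 778 and IER2 at 646 came next. The 2 cytoplasmic libraries of ATF3, at 925 and 741, overlapped those of IER5, at 708 and 848, so the order of these neighbours is not resolved, while IER2 at 641 and 652 lay below both. In GENCODE 44, 1123 and 662 bases of the IER2 span are shared with a pair of lncRNAs on the opposite strand, and its level per kilobase, like those of JUNB and MYC, may be too low where shared stretches were not counted. JUNB followed at 163.

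ZFP36, EGR1 and FOS closed the order at 6.02, 4.60 and 4.50 normalized counts per kilobase in the cytoplasmic fraction, and their libraries overlapped. The nuclear order differed in the middle. ATF3 followed MYC and JUN in the nuclear fraction at 331 per kilobase, above JUND with 140 and 185 in its libraries, and the libraries of IER5, at 170 and 176, lay within the range of JUND.

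The members were also compared with one another, 11 pairs in all, by the difference of their log2 fold changes. These intervals use the standard errors of both genes and leave out that the genes were measured in the same libraries. JUN exceeded ATF3 by 0.87 on the log2 scale, with a 95% interval from 0.51 to 1.24. JUN minus JUND was -0.65, with a 95% interval from -1.01 to -0.28, and JUND exceeded JUNB by 0.67, with a 95% interval from 0.07 to 1.28. JUN therefore sat between JUND and ATF3 within the group of AP-1 subunits. These fold changes include reads in introns, and ATF3 has 51.4 kb outside annotated exons, so its difference from JUN is not that of spliced mRNA alone.

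Against JUNB, MYC, IER2 and IER5, JUN differed by 0.07 or less on the log2 scale in either direction. The narrowest of these intervals was that of JUN minus MYC, -0.37 to 0.27, and the widest that of JUN minus JUNB, -0.55 to 0.59. IER2 minus IER5 was -0.03, with a 95% interval from -0.41 to 0.36. The log2 fold changes of JUN, JUNB, MYC, IER2 and IER5 lay between 2.14 and 2.26.

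JUN exceeded EGR1 by 2.08 (95% interval 0.33 to 3.84) and ZFP36 by 2.72 (95% interval 1.03 to 4.40). For FOS the difference of 1.95 had an interval from -0.07 to 3.96, which includes 0.

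Ratios of reads within a library do not depend on how libraries are scaled to each other. Reads of each gene were therefore expressed as a percentage of the JUN reads of the same library. IER5 stood at 44.8% and 43.1% of JUN in the nuclear libraries and 39.1% and 46.6% in the cytoplasmic ones. IER2 stood at 19.5% and 17.9% against 17.8% and 18.0%. For these genes and for JUNB the fractions overlapped, with cytoplasmic over nuclear ratios of 0.955 to 0.982.

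JUND took a larger place beside JUN in the cytoplasm, at 17.0% and 20.8% of JUN in the nuclear and 29.4% and 29.9% in the cytoplasmic libraries. ATF3 took a smaller one, at 38.7% and 39.0% in the nuclear and 23.6% and 18.8% in the cytoplasmic libraries. Neither pair overlapped. In the nuclear libraries ATF3 reads outnumbered those of JUND in both, and in the cytoplasmic libraries JUND outnumbered ATF3 in both. Reads in introns were counted too, and ATF3 has 51.4 kb outside annotated exons, against 3.58 kb for JUN and 0 kb for JUND. How many ATF3 reads came from introns is not known, so these ratios do not compare spliced mRNA alone.

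The scarce genes were also lower beside JUN in the cytoplasmic libraries. FOS was at 0.514% and 0.442% of JUN in the nuclear and 0.0924% and 0.156% in the cytoplasmic libraries. ZFP36 was at 0.982% and 0.834% against 0.154% and 0.121%, and EGR1 at 0.982% and 0.638% against 0.308% and 0.0693%. In each of these genes both cytoplasmic ratios were below both nuclear ratios, on 4 to 21 reads of the scarce gene per library. JUN itself was 4.61-fold higher in the cytoplasmic fraction, with a fold change above that of 90.9% of tested protein-coding genes. A gene with no difference between the fractions would therefore also fall beside JUN, so these ratios do not place the scarce genes.

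**Figure D3:**
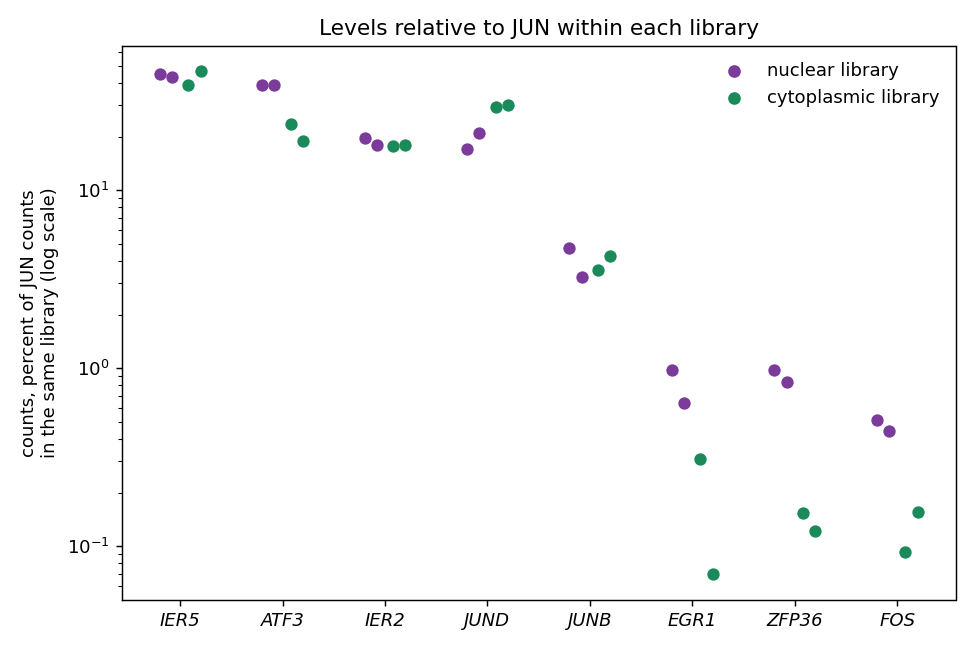
Reads of each immediate early gene as a percentage of JUN reads in the same library, on a log axis, with 1 point per library. The points of IER5, IER2 and JUNB overlap between fractions, JUND is higher in the cytoplasmic libraries, and ATF3, EGR1, ZFP36 and FOS are lower there.

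The genes are short, and short genes as a class were cytoplasmic in these libraries. In GENCODE 44, 9 of the 10 genes span under 10 kb, and the canonical transcripts of JUN, JUNB, JUND and IER5 have 1 exon. Tested protein-coding genes under 5 kb had a median log2 fold change of 2.14, with quartiles of 1.16 and 2.83, and 67.8% of the 1252 were called cytoplasmic. With a mean normalized count over 50, as all 7 called members had, the median of the class was 2.42, with quartiles of 1.70 and 3.02, and 92.7% were called cytoplasmic, so a cytoplasmic call was the common outcome for a short gene at these levels. Genes of 5 to 10 kb had a median of 1.42, and genes with 1 exon a median of 2.16, or 2.41 with 90.9% called cytoplasmic where the mean was over 50. Read against their own span class, JUNB was higher than 52.6% and IER5 than 51.6% of genes, and IER2 lay at the class median. All 3 lay below the median of 2.42 for genes of this class with a mean over 50. JUND was higher than 75.9%, and in the class of 5 to 10 kb MYC was higher than 77.3% and JUN than 75.2%. The canonical transcript of JUN begins 3.95 kb into its annotated span and covers 3.26 kb. By that length JUN falls in the class under 5 kb. There its 2.21 lay near the median of 2.14 and below the 2.42 of genes with a mean over 50.

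ATF3 is the long gene of the group, with a span of 55.4 kb of which 51.4 kb lie outside annotated exons. Its class of 50 to 100 kb had a median log2 fold change of -0.32, and ATF3 was higher than 94.6% of it. The canonical transcript begins 43.4 kb into the annotated span and covers 12.0 kb. Genes spanning 10 to 20 kb, the class of that transcript, had a median of 0.93 with quartiles of 0.05 and 1.67, and ATF3 at 1.33 lay between the quartiles. Its place therefore depends on which length is taken, and which of its start sites was used in these cells was not tested. FOS, EGR1 and ZFP36, each under 5 kb, were higher than 14.6%, 13.5% and 10.5% of their class. Protein-coding genes of any span with a mean under 20, of which 2269 were tested, had a median log2 fold change of -0.46. Of these, 1.45% were called cytoplasmic and 4.63% nuclear. Short genes with a mean under 20 were not set apart, and the part of low level in the ranks of FOS, EGR1 and ZFP36 was not tested.

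**Figure D4:**
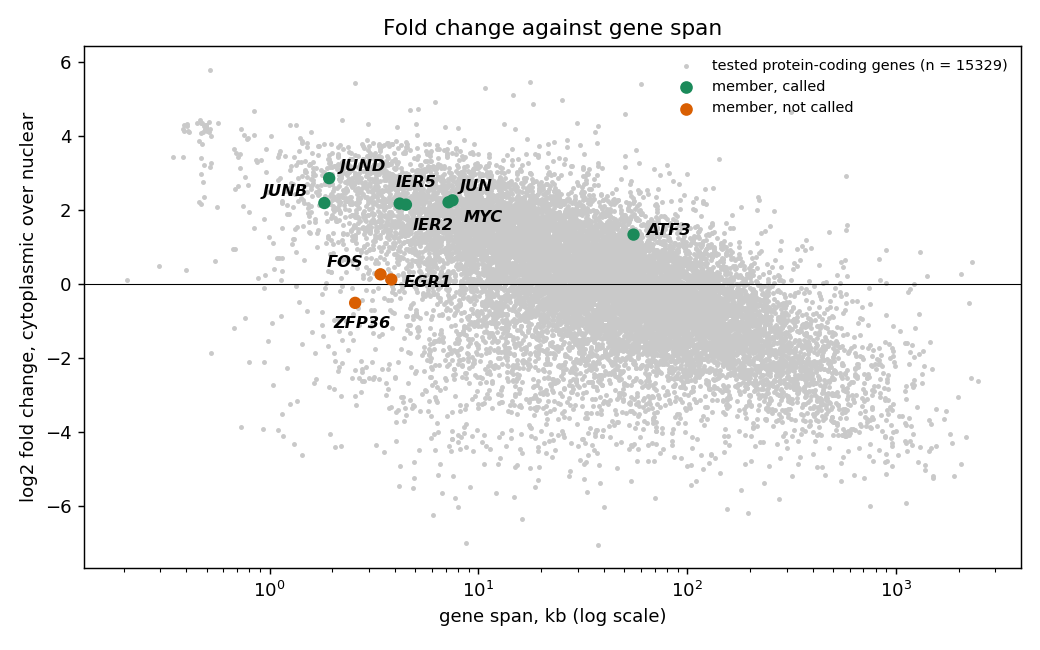
Log2 fold change, cytoplasmic over nuclear, against gene span in kilobases on a log axis for 15329 tested protein-coding genes (grey), with the immediate early genes coloured by whether they were called. The called genes other than ATF3 lie within the cloud of short genes at about 2 to 3, ATF3 lies high among genes of its annotated span, and FOS, EGR1 and ZFP36 lie low among short genes.

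Promoters were searched for the sites through which these genes are known to be induced, in 300 bases around the RefSeq start on GRCh38.p14 (250 before, 50 after), on both strands. RefSeq promoters were at hand for 9 of the 10 genes, and ATF3 had 2. The serum response sites of EGR1 and the ATF or JUN sites of JUND, JUN and ATF3 are printed, with the matched letters in capitals. The other genes searched had none of these sites in the window. EGR1 is at chr5:138465368-138465411 on the plus strand, JUND at chr19:18281809-18281828 on the minus strand, JUN at chr1:58784101-58784120 on the minus strand, and ATF3 at chr1:212565278-212565297 on the plus strand.
EGR1: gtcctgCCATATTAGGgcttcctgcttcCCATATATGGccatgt
JUND: cccccaTGACGTCAacccac
JUN: ttggggTGACATCAtgggct
ATF3: atgataTGACATCAtatggc

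The CArG box, bound by SRF, was found in 1.29% of 35116 promoters. Among the 9 genes searched only EGR1 had it in this window, with 2 copies. Sites more than 250 bases before the start were not searched, so a gene without a match may hold one there. The cAMP response element TGACGTCA was in 1.85% of promoters and in JUND. Its variant TGACATCA was in 2.61% of promoters and in JUN and ATF3, in the upstream of the ATF3 promoters. The letters TATAAA, those of the TATA box, were in 11.5% of promoters and in FOS, JUNB and ATF3, beginning 33 and 31 bases before the start in FOS and JUNB and 230 bases before it in the downstream of the ATF3 promoters. The AP-1 letters TGACTCA or TGAGTCA and the EGR letters GCGTGGGCG were not in these windows. The matches are letters only, and the fractionation data do not measure binding.

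The members were placed beside 4 lists of related genes, each described by its calls and its median. The lists were not matched for gene span. Tested protein-coding genes spanning over 100 kb had a median log2 fold change of -1.32, and 67.6% were called nuclear, whereas short genes were mostly cytoplasmic. The part of span in the values of the lists was not tested. Other early response genes, such as the KLF, DUSP, ID and GADD45 families, had the median nearest to that of the members. Of 40 tested, 29 were called cytoplasmic and 0 nuclear, and 11 were not called, with a median log2 fold change of 1.64. The C/EBP factor gene CEBPB had a log2 fold change of 2.71 and the helix-loop-helix inhibitor gene ID3 of 2.56. CEBPB and ID3 span 1.84 and 1.58 kb.

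The other AP-1 and dimer partners, most of which encode proteins that pair with Jun, Fos or MYC proteins, were called in both directions. Of 13 tested, 5 were called cytoplasmic and 2 nuclear, with a median log2 fold change of 0.58. The median turned to -0.09 with equal normalized totals, where 2 cytoplasmic calls were left. ATF4, the amino acid stress factor, was at 3.37, FOSL2, the Fos relative that was well detected here, at 1.24, and the small Maf protein gene MAFG at 1.06. ATF7 and ATF2, which pair with JUN, were higher in the nuclear fraction, at -1.44 and -1.38. ATF7 and ATF2 span 119 and 96.1 kb, and ATF4, FOSL2 and MAFG span 2.99, 24.9 and 9.47 kb.

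The upstream ERK and SRF pathway was divided. Of 27 genes tested, 9 were called cytoplasmic and 11 nuclear, with a median log2 fold change of -0.11. The SRF partner ELK1 was at 2.56 and the Ras genes HRAS and NRAS at 2.41 and 2.40. The kinase gene RPS6KA5, which encodes a histone H3 kinase at immediate early promoters, was at -2.67, the SRF coactivator MRTFA at -2.19 and the Jun kinase gene MAPK8 at -2.0. RPS6KA5, MRTFA and MAPK8 span 213, 226 and 133 kb, against 15.1, 5.08 and 12.3 kb for ELK1, HRAS and NRAS.

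Genes for AU-rich element binding and mRNA decay were also found on both sides, with 10 of 19 called cytoplasmic, 6 called nuclear and a median log2 fold change of 0.74. With equal normalized totals the median was 0.08 and 5 cytoplasmic calls were left. The deadenylase gene CNOT7 was at 2.12, the decay-promoting binder KHSRP at 1.87 and ZFP36L2 at 1.56. TIA1, a translational repressor that binds U-rich sequence, was at -1.47, the deadenylase gene PARN at -1.01 and TIAL1 at -0.69. All fold changes of single genes given for these lists passed a DESeq2 adjusted p of 0.01 in the authors' deposited table, against the backgrounds given above for both directions.

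**Figure D5:**
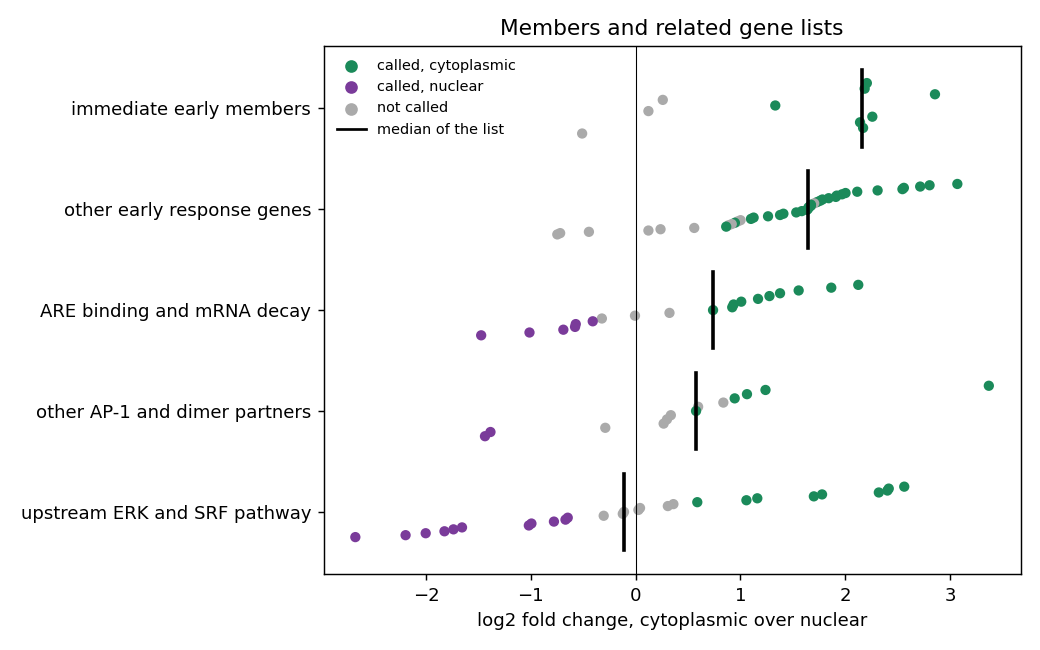
Log2 fold change, cytoplasmic over nuclear, of the 10 immediate early genes and 4 related lists of tested genes, 1 point per gene coloured by call, with a black line at each median. The early response genes have called points on the cytoplasmic side only, whereas the AP-1 partner, pathway and decay lists have called points on both sides.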

How the data were processed

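RNA of nuclear and cytoplasmic fractions of HEK293T cells was sequenced from both ends for 100 nt, with 2 libraries per fraction. The authors aligned reads to hg38 with STAR, counted them over exons and introns with featureCounts 2.0.2 on an extended GENCODE annotation without stretches shared between genes, and compared fractions with DESeq2. The deposited table gives per gene the mean normalized count over all libraries (a signal), the log2 fold change with a standard error, the Wald score, the p-value and the adjusted p-value. The fold changes, scores and p-values are the authors' comparison and were used because the table holds no column for a single library. They replaced the test set out for a table of counts. A gene was called at an adjusted p of at most 0.01.

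Whole counts were solved from the deposited mean, fold change and standard error with Python 3.11.15, numpy 2.4.6 and numba 0.67.0. All 7519 genes with a mean between 1 and 10 were met by 1 set of counts. A member was taken as solved when 1 set gave the fold change to within 1e-06 on the log2 scale. For more abundant genes the search assumed fraction sums close to those the fold change gives. For JUN, JUND, ATF3, MYC, IER2 and IER5 it also limited how far the replicates of a fraction could differ. Sets of counts beyond that limit were not examined for these genes. The steps were tested on simulated data. For the recovery of counts the simulated means did not reach that of JUN, and simulated replicates differed little beyond counting noise. Fraction means follow from the mean and the fold change. Intervals use the deposited standard error.

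Structure and 3′ UTRs came from GENCODE 44, promoters from RefSeq on GRCh38.p14. The members and lists were chosen with earlier results of these data known. The text names all members and, from each related list, up to 3 called genes per direction with a mean over 50 by absolute log2 fold change, of which 1 early response gene is not reported here. Alternatives were the scale, threshold, adjustment, filter, null value and each library left out.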

Additional observations from a re-analysis of the deposited data

How the results depend on the processing

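The 7 cytoplasmic calls among the immediate early genes held under every change of scale, threshold, adjustment and filter and fell to 6 in a test against a log2 fold change of 1, and nuclear calls stayed at 0. With equal normalized totals FOS and EGR1 turned to -0.40 and -0.54, uncalled. With 1 library left out at a time FOS ranged from -0.17 to 0.60 (-0.17 without cytoplasmic library b) and EGR1 from -1.33 to 0.82 (-0.11 without nuclear library b). The other solved members kept direction and call, and MYC could not be run without a library. Related lists moved more. Equal totals left 2 cytoplasmic AP-1 partners and 5 cytoplasmic decay genes, and gave 2 nuclear early response and 17 nuclear pathway genes. The test against a log2 fold change of 1 left 1 AP-1 partner, 16 early response and 4 decay genes cytoplasmic, and 6 pathway and 1 decay gene nuclear. Bonferroni adjustment left 3 nuclear decay genes. The cause was not tested beyond what these shifts and stricter tests impose by construction. No paired analysis was possible because the table does not tell which replicate number a library carries. Depth limits FOS, EGR1 and ZFP36, at 35 to 58 reads in all.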
